A study of Mytilus galloprovincialis with 8 samples.

Results

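The transcripts described here are 89 microarray probes of the mussel Mytilus galloprovincialis, of 51300 probes on the array, that were already measurable in the digestive gland of control mussels and were more than 4-fold brighter in the digestive gland of mussels exposed to the dinoflagellate Prorocentrum lima. They were chosen by 4 criteria. Each is named after the SSH forward library (contig names that start with mgt200.forw, read by the codes of the study as the subtracted library enriched in transcripts of exposed mussels), which holds 15070 of the probes. The log2 ratio of exposed over control was above 2 in both digestive gland replicates, which 324 of the SSH forward probes met. The mean ratio in gill lay between -0.5 and 0.5 (250 of the 324). The control channel was well above background on all 4 digestive gland arrays, which left 89 of the 250. For this choice 50 was added to every background-subtracted signal, and the ratios of each array were centred on their median. The exposure ratios in both tissues are therefore what the probes were selected on, and they are given below as a description.

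Exposed mussels were adults fed P. lima for 24 h (200 cells per ml by the sample labels, whereas the study's methods state the dose per litre). Control mussels were adults from the same collection, kept in the same way without P. lima, and both were fed the microalgae Tetraselmis suecica and Isochrysis galbana. Digestive gland and gill RNA was pooled from 5 mussels of a treatment, and an exposed pool and a control pool were hybridized together on each 2-colour array. Every pair of pools was hybridized again with the dyes exchanged. An array and its dye swap were counted as 1 replicate, which gives 2 replicates for each tissue and treatment on 8 arrays. The 8 arrays shared 1 slide and 1 scan. Digestive gland occupied row 1 of the slide and gill row 2, so that tissue and position cannot be told apart. The share of spots with both channels well above background was 51.7% to 57.4% in digestive gland and 37.0% to 39.6% in gill, and no spot was saturated. The dye of the control RNA on 1 digestive gland array (replicate 2) is named Cy6 in the labels and was read as Cy5. With this array left out, the same 89 probes met the criteria. Neither the files nor the reference table pair the probes with gene names, so that the members go by the names of their contigs and the tissues could not be checked against marker genes.

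Suppression subtractive hybridization (SSH) removes transcripts that 2 RNA populations have in common and amplifies those in excess in one of them, so that a forward library is enriched in transcripts that are more abundant after the treatment. It favours transcripts that differ and evens out abundant and rare ones. The digestive gland is the organ in which bivalves digest filtered algae, and it is the main site where the toxins of P. lima, okadaic acid and its derivatives, accumulate. Okadaic acid inhibits the serine/threonine phosphatases PP1 and PP2A. The gill filters the particles from the water and passes them to the mouth, and it meets the algae before they are broken down. In assembled libraries, contig names with the letters rep are the names that the MIRA assembler gives to contigs built from repetitive reads, such as those of very abundant transcripts or of gene families.

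In digestive gland all 89 members were far brighter in the exposed pools than in the control pools. The net signal (median spot signal minus local background, averaged over the dye swap, in scanner units) ranged between 335 and 98817 in exposed replicate 1 and between 470 and 151738 in exposed replicate 2, with medians of 1280 and 2270. In control digestive gland it ranged between 20.5 and 9978 in replicate 1 and between 18.0 and 11538 in replicate 2, with medians of 100 and 86.8. The control pools thus gave a low but measurable signal for most members. The other 7668 SSH forward probes that were well above background in control digestive gland had medians of 289 and 450 in the exposed pools and of 304 and 277 in the control pools. In bulk tissue, more cells of a type and more RNA per cell cannot be told apart.

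**Figure D1:**
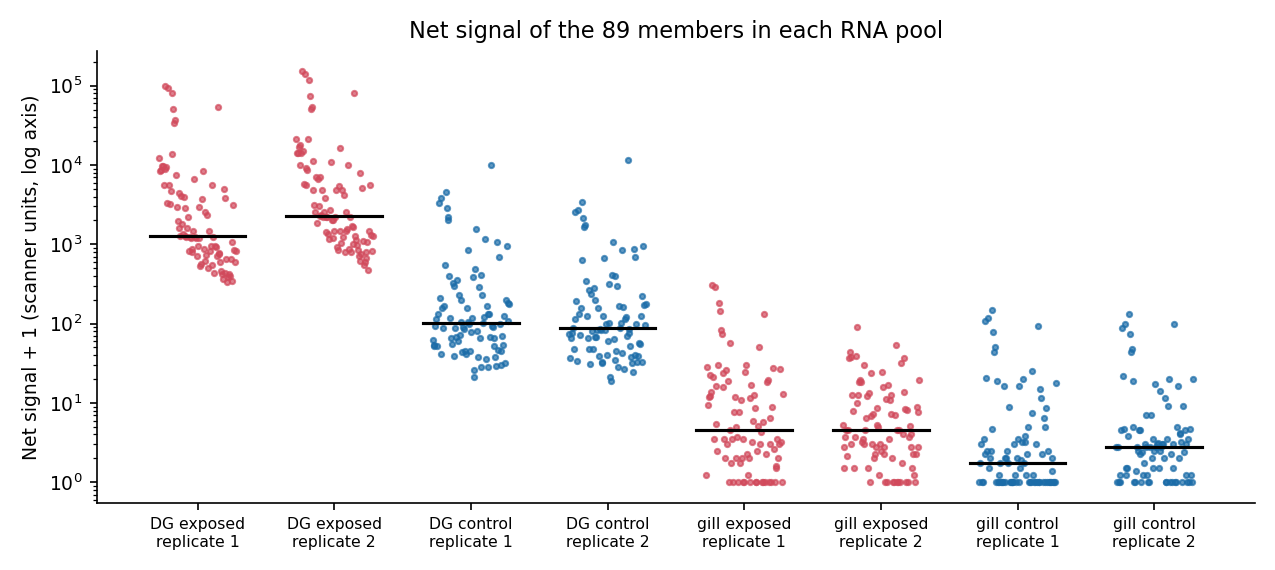
Net signal plus 1 (scanner units, log axis) of the 89 members in the exposed and control pools of digestive gland (DG) and gill, with 1 point per member, ordered by digestive gland ratio within each column, and a line at the median. The exposed digestive gland pools have medians of 1280 and 2270 units, the control digestive gland pools of 100 and 86.8, and the 4 gill pools of 3.5, 3.5, 0.75 and 1.75.

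The mean log2 ratio in digestive gland ran between 2.15 and 7.04 with a median of 3.24, while over all 51300 probes the median was -0.10. By size, 12 members lay above 5, 14 between 4 and 5, 29 between 3 and 4, and 34 at 3 or below. Within replicate 1 the members ran between 2.01 and 6.79 (median 2.97), and within replicate 2 between 2.23 and 7.29 (median 3.53). Replicate 2 exceeded replicate 1 in 88 of the 89 members, by a median of 0.56. The exception was mgt200.forw_rep_c15661, at 2.27 in replicate 1 and 2.23 in replicate 2. Replicate 2 was also the higher one in 85.5% of the other SSH forward probes detected in control digestive gland, by a median of 0.33. The order of the members was nearly the same in both pools (Pearson r = 0.983 and Spearman rho = 0.960 across the 89 members, which share arrays and were chosen on these values).

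**Figure D2:**
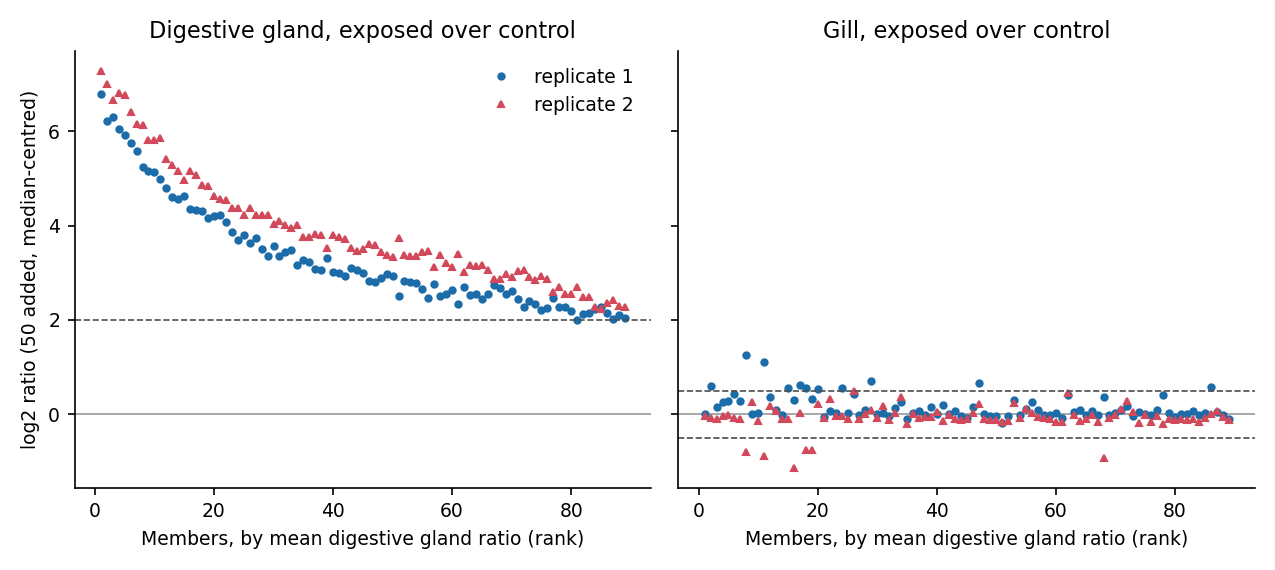
log2 ratio of exposed over control (50 added, median-centred) of each member in replicates 1 and 2 of digestive gland (left) and gill (right), ranked by the mean digestive gland ratio. Dashed lines mark the limits of 2 and of -0.5 and 0.5 used in the choice. In digestive gland replicate 2 lies above replicate 1 in 88 members, and in gill most values lie near 0, with 15 members beyond 0.5 in size in at least 1 replicate.

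A limma fit of the ratios across all probes (normexp background correction and loess, Benjamini-Hochberg adjustment) called all 89 members higher in exposed digestive gland at an adjusted p under 0.05, where 9.09% of the 51228 probes tested were called higher. The choice of the members used the same contrast, and nothing is read from this count. On single arrays the ratio depended on the dye. It was higher in every member when the exposed RNA was labelled red, by a median of 1.32 in replicate 1 and 0.88 in replicate 2, and the other SSH forward probes detected in control digestive gland shifted the same way, by 1.51 and 1.28. The mean over the dye swap removes this shift. Both arrays of the swap were above 2 in 59 members in replicate 1 and in 81 members in replicate 2, and the lowest ratio on any digestive gland array was 0.83.

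The largest ratio belonged to mgt200.forw_c2994 (probe CUST_39017_PI427859148). Its net signal was 12155 and 21410 in the exposed digestive gland pools, against 61.0 and 72.0 in the control pools, and its log2 ratios were 6.79 and 7.29. In gill it gave 0.25 and 4.25 units in the exposed pools and 0 and 1.75 in the control pools, and it was well above background on none of the gill arrays. This member was thus among the brightest 10 in exposed digestive gland and had no measurable signal in gill.

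The next 6 members by ratio had a similar brightness in digestive gland, with 5645 to 17613 units in the exposed pools and 36.3 to 132 in the control pools. The contig mgt200.forw_rep_c3462 (probe CUST_39302_PI427859148) gave 8286 and 14040 units in exposed digestive gland, against 53.5 and 36.3 in control digestive gland. The contigs mgt200.forw_c16789 (CUST_48562_PI427859148), mgt200.forw_rep_c4944 (CUST_40132_PI427859148), mgt200.forw_c8150 (CUST_42048_PI427859148), mgt200.forw_rep_c5402 (CUST_40318_PI427859148) and mgt200.forw_c13005 (CUST_45720_PI427859148) had mean log2 ratios of 6.48, 6.43, 6.34, 6.09 and 5.87, in this order. None of the 6 was above background in control gill on any array, whereas each was above background in exposed gill on 1 or 2 arrays. In exposed gill replicate 1 they gave 8.5 to 27.3 units and in exposed gill replicate 2 they gave 0.5 to 3.5 units, and in control gill between 0 and 3.5 units. Their small gill signal was thus seen mainly in 1 of the 2 exposed pools.

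The eighth member, mgt200.forw_rep_c10079 (CUST_43524_PI427859148), was the brightest of all. Exposed digestive gland gave 98817 and 151738 units, against 3334 and 2516 in control digestive gland, with log2 ratios of 5.23 and 6.12. In gill it was above background in both treatments on every array. The exposed gill pools gave 308 and 35.5 units and the control gill pools 107 and 87.5, so that the log2 ratio was 1.25 in replicate 1 and -0.79 in replicate 2. The mean of 0.23 that placed it inside the gill limits is the average of opposite values.

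At the threshold, the members nearest to a ratio of 2 in the lower replicate were mgt200.forw_rep_c4455 (2.01 and 2.69 in replicates 1 and 2), mgt200.forw_c5267 (2.01 and 2.43) and mgt200.forw_rep_c6238 (2.04 and 2.27). Just outside it, with the other criteria met, lay mgt200.forw_rep_c3939 (2.00 after rounding, below the limit, and 2.38), mgt200.forw_c8113 (1.99 and 2.55) and mgt200.forw_c10954 (1.98 and 2.73). At the gill limit the outermost members had mean gill ratios of 0.47 (mgt200.forw_rep_c6298), 0.43 (mgt200.forw_rep_c7566) and 0.43 (mgt200.forw_c8051), and the first probes beyond it were mgt200.forw_rep_c4781 at 0.52, mgt200.forw_rep_c4439 at 0.52 and mgt200.forw_c572 at 0.55.

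In gill most members were too dim for an exposure ratio to be measured. The net signal had a median of 3.5 units in each exposed gill pool, against 0.75 and 1.75 in the control gill pools, where the other SSH forward probes detected in control digestive gland had medians of 28.5 and 45.5 in exposed and of 22.8 and 20.5 in control gill. Of the 89 members, 9 (10.1%) had both channels well above background on each of the 4 gill arrays, against 55.0% of those other probes. In 49 members (55.1%, against 21.9%) no channel was above background on any gill array, and in 71 (79.8%, against 32.0%) control gill was never above background. A signal of a few units with 50 added gives a ratio near 0 whatever the RNA did. For most of the 89, a gill ratio near 0 thus says that no gill signal was measured, and the data do not show that they were unchanged there. A rise limited to digestive gland was therefore measured for at most the 9 members that had a signal on all gill arrays, and in those the gill ratios were mixed.

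The mean gill ratio of the members ran between -0.42 and 0.47 with a median of -0.005, and over all probes the median was -0.03. Both gill replicates were above 0 in 24 members, both below 0 in 25, and the replicates had opposite signs in the rest. Of all 51300 probes, 13636 had both above 0 and 19759 both below 0. Of the 7668 other SSH forward probes detected in control digestive gland, these were 3999 and 1350. Replicate 1 was above replicate 2 in 77 members (86.5%), against 52.2% of all probes and 33.0% of the other SSH forward probes detected in control digestive gland. Among the 137 SSH forward probes with the same rise and gill range but no control digestive gland signal it was 91.2%. Members with 0 net signal in every gill pool, such as mgt200.forw_c1774, lay at -0.01 and -0.10 in replicates 1 and 2 by the median centring alone. In such dim members neither the signs nor this order give a direction. In the limma fit 0 of the 89 members were called in gill, where 0.0293% of all probes tested were called in either direction. At an unadjusted p under 0.05, 8 members were higher in exposed gill and 0 were lower, where 7.13% and 7.15% of all probes tested were. The share of higher members is thus near the background. The choice of members used this contrast too.

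The 71 members without a control gill signal fell into those with and without an exposed gill signal. In 22 of them exposed gill was above background on at least 1 array, and in 3 of these on all 4 arrays. Of the 2452 other SSH forward probes detected in control digestive gland but not in control gill, these were 775 and 129. The members are thus not set apart by these counts. The 3 were mgt200.forw_rep_c18390, mgt200.forw_rep_c6298 and mgt200.forw_rep_c7566. The first gave 22.8 and 17.5 units in exposed gill, against 0 and 4 in control gill. The second gave 18.0 and 28.8 units in exposed gill, against 0 and 1.5 in control gill. The third gave 29.3 and 15.0 units in exposed gill, against 0 and 1.75 in control gill. In each of the 3 both exposed gill pools were brighter than both control pools, and the ratio was held inside the limits by the added 50. The 3 were picked by their detection, which by itself favours that order. None passed the limma test in gill. In the opposite direction, no member was above background in both arrays of a control gill pool and on neither array of its exposed pool. Exposed gill alone was above background on both arrays in 10 members in replicate 1 and in 6 members in replicate 2. No share of other probes stands beside these counts by replicate, and nothing is read from them. Among the 7668 other SSH forward probes detected in control digestive gland, exposed gill was above background on more arrays than control gill in 1438. It was on fewer in 197.

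With 10 in place of 50 added to each signal, the median gill ratio of the 22 members was 0.58 in place of 0.19, and 14 of them passed 0.5. With the processed signals of the scanner software their median was 1.66 and 20 of them passed 0.5, and with the authors' table of log2 ratios the median was 0.59 and 14 passed 0.5. Their ratio was above 0 in 22 of 22 under each of these but the authors' table, where it was above 0 in 21. The 22 were picked for a signal in exposed gill and none in control gill, which by itself favours a ratio above 0. The treatments of the signal also use the same spots, so that nothing is read from this count. The 49 members without any gill signal had medians of -0.04, -0.09, 0.05 and 0.09 under the 4 treatments of the signal, in the order of 50 added, 10 added, processed signals and authors' table. The 9 members measured in both channels on all gill arrays had medians of 0.11, 0.05, -0.36 and -0.13 in the same order. For 14 of the 22 the gill criterion was thus met with 50 added and not with 10, and the 89 are called members by their criteria here and not a response of digestive gland alone.

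**Figure D3:**
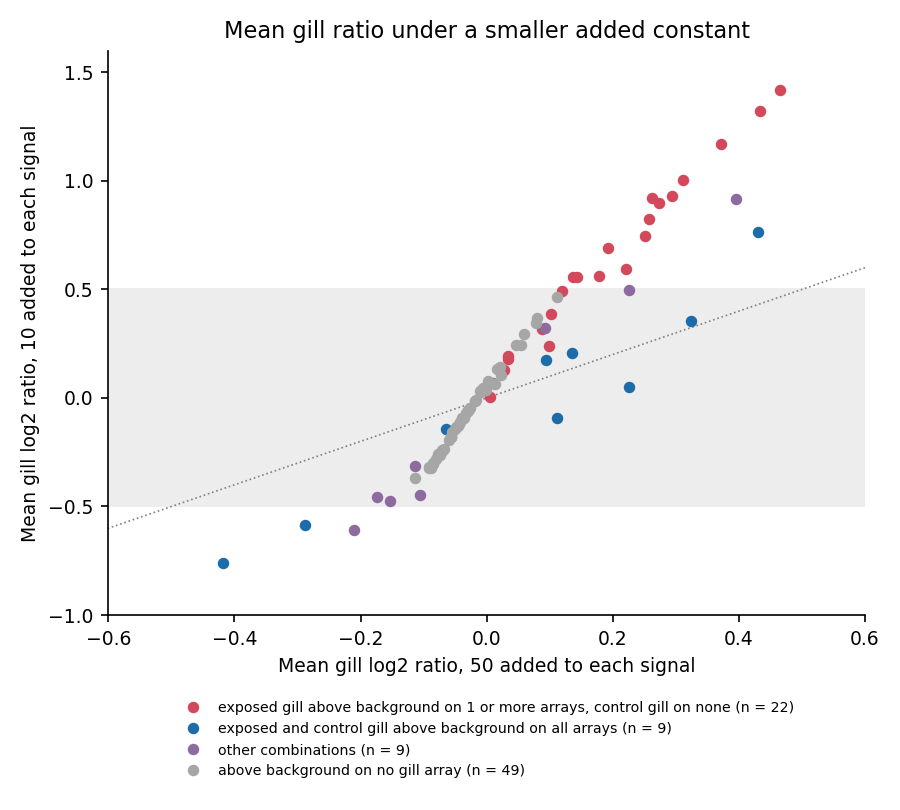
Mean gill log2 ratio of each member with 50 (horizontal) and with 10 (vertical) added to the signals, coloured by where the member was above background in gill. The dotted line marks equal values and the grey band -0.5 to 0.5. Of the 22 members seen in exposed gill alone, 14 lie above the band with 10 added.

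Control gill was above background on all 4 arrays in 12 members, of which 6 had opposite gill replicates. In these 6 the ratio was above 0 in replicate 1 and below -0.5 in replicate 2. Of the 3080 other SSH forward probes with the same detection in control digestive gland and control gill and a mean gill ratio within the limits, 13 (0.422%) had this combination and 39 (1.27%) the reverse, which no member had. These 6 (mgt200.forw_rep_c10079, mgt200.forw_rep_c5497, mgt200.forw_rep_c13288, mgt200.forw_rep_c5549, mgt200.forw_rep_c9526 and mgt200.forw_rep_c6153) were described as a group after their values were seen. All 6 are repeat contigs, and they hold the ranks 1, 2, 3, 4, 7 and 6 among the members by brightness in exposed digestive gland.

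Their 8 pools followed one pattern. Exposed digestive gland gave 33594 to 98817 units in replicate 1 and 50766 to 151738 in replicate 2, against 2008 to 9978 and 1628 to 11538 in control digestive gland. Exposed gill gave 73.8 to 308 units in replicate 1 and 9 to 38.5 in replicate 2, against 42.5 to 146 and 43.3 to 130 in control gill. Exposed gill replicate 1 was thus the brightest gill pool and exposed gill replicate 2 the dimmest in each of the 6, while both control pools lay between them. The same order was seen in both dye orientations for the negative ratios of replicate 2 (-0.57 to -1.36 on single arrays). In replicate 1 the ratio was above 0 on both arrays in 4 of the 6, while mgt200.forw_rep_c13288 and mgt200.forw_rep_c5549 were at -0.20 and -0.21 on the array with the exposed RNA in green.

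The gill signal of these 6 in exposed replicate 1 came to between 0.202% and 0.311% of their signal in exposed digestive gland replicate 1. In control replicate 1 the same share was 0.927% to 3.21%. In exposed replicate 2 gill was dimmer and digestive gland brighter than in exposed replicate 1 in each of the 6. The share was thus not constant across the pools. Among the other members of the brightest 12 this share was 0.282% in mgt200.forw_rep_c3709, 0.214% in mgt200.forw_rep_c3703, 0.216% in mgt200.forw_rep_c19011, 0.115% in mgt200.forw_c8150 and 0.111% in mgt200.forw_rep_c4944, whereas it was 0.00206% in mgt200.forw_c2994. These 12 were picked for their brightness, and dimmer members had larger shares, up to 8.92% in mgt200.forw_c8051. In mgt200.forw_rep_c19011 the gill signal of replicate 1 was about as high in the control pool. A part of the digestive gland signal in that of gill was not tested. Across all 89 members the mean digestive gland ratio and the ratio in gill replicate 1 had a Pearson correlation of 0.417 and a Spearman correlation of 0.349, and with gill replicate 2 the values were -0.127 and 0.0663. The points share arrays and the members were chosen on both ratios, so that these are descriptions.

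**Figure D4:**
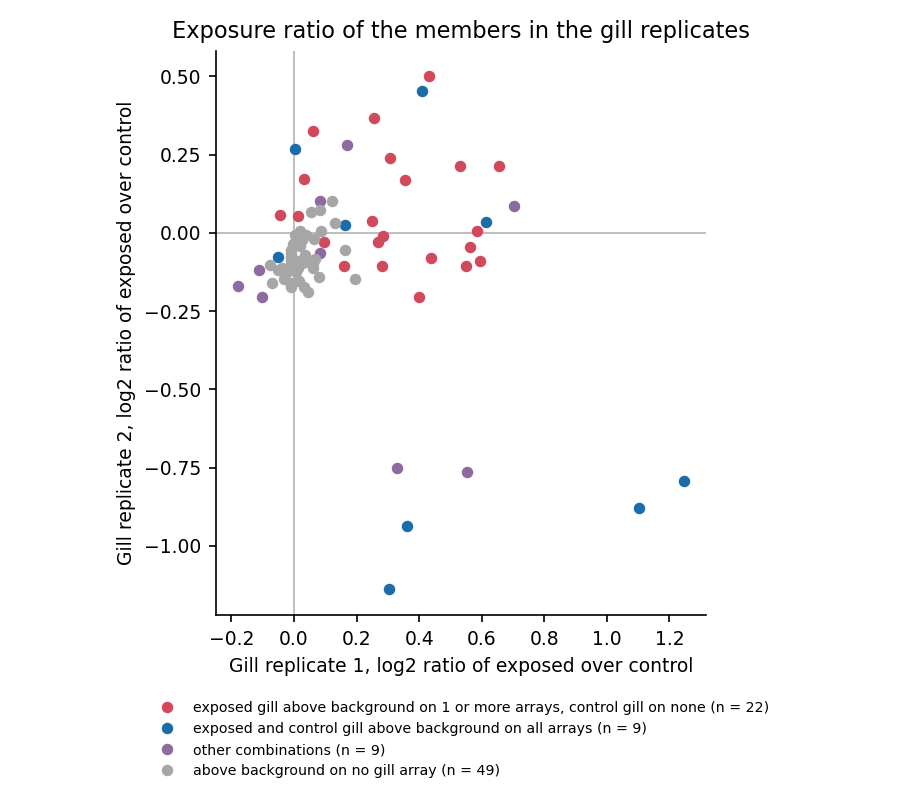
log2 ratio of exposed over control of each member in gill replicate 1 (horizontal) and gill replicate 2 (vertical), coloured by where the member was above background in gill. The 6 members at the lower right have ratios above 0 in replicate 1 and below -0.5 in replicate 2, and the 49 members without a gill signal lie near 0.

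The remaining members with control gill above background on all arrays did not have opposite replicates of this size. The contig mgt200.forw_rep_c3709 gave 50297 and 73297 units in exposed digestive gland, against 2877 and 2155 in control digestive gland, and 142 and 89.9 units in exposed gill, against 77.5 and 73.4 in control gill. Its gill ratios were 0.61 and 0.03, and both exposed gill pools were above both control gill pools. The contig mgt200.forw_rep_c19011 gave 9490 and 15101 units in exposed digestive gland, against 208 and 190.0 in control digestive gland, and 20.5 and 42.3 in exposed gill, against 19.8 and 21.0 in control gill, where the pools overlapped. The contig mgt200.forw_c8051 was the only one of the 12 with gill ratios above 0.4 in both replicates (0.41 and 0.45), from 49.0 and 53.0 units in exposed gill, against 24.3 and 19.3 in control gill. Its gill signal in the exposed pools was higher than in the control pools without overlap, and it was not called by the test (limma adjusted p = 0.174).

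The control pools of the 2 tissues were also compared, a contrast that the criteria did not use directly, although the control signal enters the ratios. It asks whether the members had been more abundant in digestive gland than in gill before any exposure. Members had to be detected in control digestive gland, with no such demand in control gill, which by itself favours a higher value in digestive gland. The other SSH forward probes with that detection are therefore set beside them, and nothing particular to the members is read from the count. On single-channel levels (normexp, loess within and Aquantile between arrays), 55 of the 89 members (61.8%) were higher in control digestive gland than in control gill at a limma adjusted p under 0.05, against 51.3% of the 7646 comparable SSH forward probes tested and 19.7% of all probes. Another 7 were called lower in control digestive gland than in control gill on these levels. Their unscaled net signals, by contrast, were higher in both control digestive gland pools than in both control gill pools. No direction is therefore read from these 7 calls. The median difference was 0.40 (log2) in the members, 0.28 in the comparable probes and -0.07 over all probes. The middle 50% of the members lay between 0.05 and 1.01, and that of the comparable probes between -0.46 and 1.23. Control levels of both digestive gland pools were above those of both gill pools in 62 members. No share of the comparable probes stands beside this count, and nothing is read from it.

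How many members were called depended on the scaling between arrays. Quantile normalization of the single channels gave 83 of 89 members and 53.2% of the comparable probes, scaling to the array median gave 81 of 89 and 80.9%, and the processed signals gave 79 of 89 and 51.3%. Members called lower in control digestive gland numbered 1, 0 and 2 under these 3, and the median difference of the members was 0.85, 0.83 and 3.1. For 71 of the 89 the control gill signal was not above background on any array, so that the fitted difference is not a measured one. Of these, mgt200.forw_rep_c10631 and mgt200.forw_rep_c3672 were even called lower in control digestive gland on the levels of the main fit, at -0.28 each. A lower bound was therefore worked out. The bound was taken against the lowest level among the probes that were well above background on each gill array, or the probe's own level where that was higher. It exceeded 1 in 50 of the 71, and among these 50 alone it ran from 1.01-fold to 5.82-fold (median 1.44-fold). In the rest of the 71 no excess is bounded. The bound carries no error, and some members with a bound just above 1 were not called. An example is mgt200.forw_rep_c3675 (bound 1.04-fold, limma adjusted p = 0.723). Of these 71 members 46 were called higher in control digestive gland, and of the 18 with a control gill signal on at least 1 array 9 were.

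**Figure D5:**
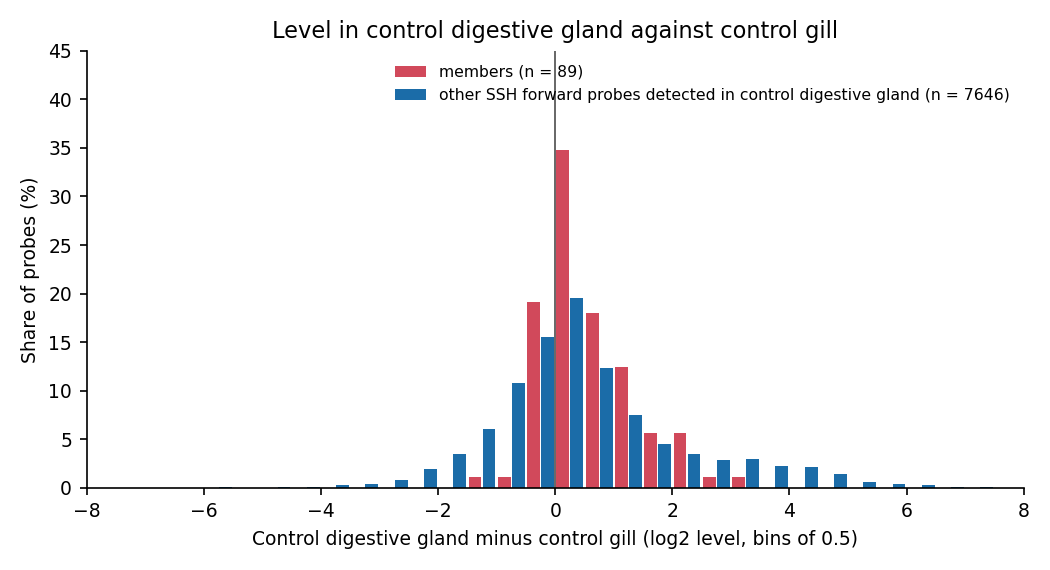
Distribution of the difference between control digestive gland and control gill (log2 level, in bins of 0.5) over the 89 members and over the other 7646 SSH forward probes that were well above background in control digestive gland and tested, each as a share of its group. The members have a median of 0.40 and a highest value of 3.37, and the other probes a median of 0.28.

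On these levels the largest excess of control digestive gland over control gill was in mgt200.forw_rep_c5549, one of the 6 members with opposite gill replicates, whereas with the processed signals it was at 3.75, below the 3 contigs named next, at 5.89, 4.0 and 5.87. Its net signal was 9978 and 11538 units in control digestive gland, against 92.5 and 98.8 in control gill, and the fitted difference was 3.37 ± 0.11 (SE, n = 2 each, limma adjusted p = 6.38e-06), which is 10.4-fold on this scale. The contigs mgt200.forw_rep_c3810, mgt200.forw_rep_c4182 and mgt200.forw_rep_c20543 followed at 2.56 ± 0.06, 2.35 ± 0.09 and 2.33 ± 0.12 (limma adjusted p of 2.9e-06, 1.25e-05 and 3.82e-05). None of the 3 was above background in control gill, and control digestive gland was at least 5.82-fold, at least 5.11-fold and at least 4.72-fold higher. In control digestive gland they gave 688 to 1157 units, and in control gill 0 to 8.25 units. All 4 are repeat contigs, and all lay low in the ranking by exposure ratio, at ranks 68, 75, 61 and 77 of 89. The control signal is the denominator of that ratio, so that a high control level by itself lowers it. Other members with a high control signal ranked higher, such as mgt200.forw_rep_c5497 (3856 and 2700 units, rank 11) and mgt200.forw_rep_c13288 (4559 and 3403 units, rank 16). The 4 contigs with the largest excess were also called under the other 3 scalings, while the sizes moved, between 2.48 and 5.89.

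At the other end, the 4 lowest differences of the fit belonged to 3 of the 7 members called lower in control digestive gland and to 1 that was not called, and their size or direction moved with the scaling. The contig mgt200.forw_c8051 was at -1.12 ± 0.07 (limma adjusted p = 9.03e-05), and at -0.64 with quantile normalization, -0.18 with scaling to the array median (adjusted p = 0.0525) and -1.73 with the processed signals. Its unscaled net signals were 35 and 41.5 in control digestive gland and 24.3 and 19.3 in control gill. The contigs mgt200.forw_c1002 and mgt200.forw_c13506 were at -0.69 ± 0.10 and -0.50 ± 0.08 (limma adjusted p = 0.00223 and 0.00454), but turned to 0.05 with scaling to the array median and to 0.02 with the processed signals, in this order. The contig mgt200.forw_rep_c3462 was at -0.36 ± 0.18 (limma adjusted p = 0.164) and turned to 0.52, 0.36 and 2.38 under the other 3. Unscaled, control digestive gland was brighter than control gill in the last 3 too. The net signals were 50.5 and 36.5 against 10.5 and 15.3 in mgt200.forw_c1002, and 27.8 and 27.5 against 4.0 and 10.5 in mgt200.forw_c13506. In mgt200.forw_rep_c3462 they were 53.5 and 36.3 against 0.75 and 0, with control gill above background on no array. No direction is therefore given for any of the 4.

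A feature that the criteria did not use was the name of a repeat contig. Repeat contigs made up 49 of the 89 members (55.1%), against 18.8% of the other SSH forward probes detected in control digestive gland. They were 16.8% of all SSH forward probes and 27.6% of all 51300 probes. Among the 137 SSH forward probes with the same rise and gill range that were above background in control digestive gland on no array, repeat contigs were 42.3%, and among the 35 with the same rise and detection but a gill ratio outside the limits 37.1%. With control above background on 1 to 3 arrays they were 45.8% of 24 probes. In other libraries they were 41.7% of the 12 probes that met every other criterion. A raised share was thus not particular to the members. The 49 repeat contigs had a median digestive gland ratio of 3.42, and the other 40 members of 3.23. In exposed gill 28 of the 49 repeat contigs were above background on at least 1 array, and 11 of the other 40. These shares carry no test, since the groups were chosen on their ratios, and contigs of one gene or gene family may be counted more than once.

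Compared with those 137 probes without a control signal, the members were brighter in exposed digestive gland (medians of 1280 and 2270 units, against 345 and 558) and had a mean ratio of 3.24 at the median, against 3.01. Both groups had to pass the same limit on the ratio, so that a measurable control signal by itself calls for a brighter exposed signal. Nothing is therefore read from the difference in brightness. A probe without a control signal gives only a lower bound of its ratio, so that the sizes of the ratios cannot be ranked. The 35 probes that met every criterion but the gill limits were at a median digestive gland ratio of 3.51. Their gill signal was higher, with medians of 182 and 55.5 units in the exposed pools and 7.5 and 6.75 in the control pools, and in 34 of the 35 both gill replicates were above 0. Among them 18 were above background in control gill on no array, and 16 of the 18 were above background in exposed gill on all 4. The 22 members seen in exposed gill alone had a median of 0.19 in their mean gill ratio, against 1.15 in these 35. The gill limits themselves set the members and the 35 apart. Nothing is therefore read from the difference in their gill ratios, signs or signals. Outside the SSH forward library 12 probes met all other criteria.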

How the data were processed

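Transcript levels in pooled RNA of digestive gland and of gill were measured on 2-colour Agilent arrays. For each array the authors deposited the scanner output of Agilent Feature Extraction 10.7.3.1, from which the median intensity of each spot, the local background intensity, the processed signals and the quality marks were used, and a table of log2 ratios, whose processing is not given in the sources used here and which was matched by normexp with an offset of 10 and loess (r of 0.9996 or more on each array).

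Members were found with the signal minus background (floored at 0) plus 50, log2 ratios of exposed over control centred on the median of each array, and means over the spots of a probe and over the dye swap. Tests used limma 3.58.1 in R 4.3.3 on normexp-corrected intensities (offset 50) with loess, without spots marked as outliers, on dye-swap means and with Benjamini-Hochberg adjustment over all probes at 0.05. The ratio fit has 2 residual degrees of freedom, and p-values measure the spread between 2 pairs of pools per tissue. Both fits were run on simulated replicate values with 200 changed probes and spreads taken from these data. No arrays were simulated, so that the processing of the arrays was not checked in this way. The precision is limited by the number of arrays. The members and the rules for naming them were chosen with earlier results of these data known. Named are the 8 largest digestive gland ratios, 3 members on each side of the thresholds, the members measured in gill with the largest or most divergent ratios, and the 4 extremes of control digestive gland against control gill on each side. Others were named after their values were seen. Alternatives changed the background correction, the added constant, the scaling, the values, the spots and arrays used, the limits of the member criteria and the detection filter, and left out each replicate in turn.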

Additional observations from a re-analysis of the deposited data

Results flagged for a closer look

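The contig mgt200.forw_rep_c19951 had ratios above 0 in both digestive gland replicates and slightly below 0 in both gill replicates while it was above background in both channels on every array. Its net signal was 2973 and 4805 units in exposed digestive gland, against 118 and 123 in control digestive gland, and its log2 ratios were 4.22 and 4.57. In gill it gave 15.0 and 18.5 units in the exposed pools, against 17.8 and 17.8 in the control pools, with ratios of -0.05 and -0.08 and a mean of -0.0646. The sign in gill followed the dye, at 0.12 and 0.08 with the exposed RNA in red and -0.23 and -0.24 with it in green. The gill pools overlapped, no change in gill was called (limma adjusted p = 0.591), and the difference in direction between the tissues was not tested. Only members measured on all gill arrays in both channels were examined for this, and groups of 2 replicates were too small for a check of single outlying samples.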

How the results depend on the processing

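The 89 members became 149 with a ratio limit of 1.5, and 82 to 155 when each replicate was left out in turn, with 155 without digestive gland replicate 1. The other settings gave 67 to 113 members, but they were not always the same probes: 70 of the 89 remained with 10 added, 70 with the authors' table and 51 with the processed signals. The members' median ratio in digestive gland was 3.81 with 10 added and 4.07 with the processed signals, and in gill 0.12 with the authors' table and 0.18 with the processed signals. Members called higher in exposed digestive gland numbered 82 to 89 with replicates left out, and in gill 0 were called in every such fit. Over all probes the digestive gland calls went down to 2636 without digestive gland replicate 1 and 1294 without digestive gland replicate 2, and the gill calls were 301 on the values of the member rule, 30 without gill replicate 2 and 0 without any other replicate. For control digestive gland against control gill the 55 members called became 83 with quantile normalization, 44 to 57 with replicates left out, and 7 of the 12 members left when probes had to be above background in control on all arrays, where fewer were tested. Over all probes 18821 were called higher in control digestive gland with scaling to the array median and 3617 with that filter, in which 24.4% of the calls were higher in control digestive gland, against 37.8% without the filter. The median of all probes shifted to -0.18, -0.20 and -0.54 under scaling to the median, processed signals and the filter. With the replicate number as a block (replicate block) 56 members were called. The numbers are not stated to mark shared animals, and control deviations of the same number correlated at 0.206 across 51210 probes over 2 pairs. Gill signals near background limit every gill ratio, and single-array ratios in digestive gland carry a dye shift that only the swap removes.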
